A study of Mus musculus with 2 samples.

Results

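The nuclear genes that encode subunits of the respiratory chain and of the ATP synthase were described in single cells from MC38 tumours of LC427-treated and vehicle-treated mice. Members were the genes whose symbol begins with Nduf followed by a, b, c, s or v and a digit, with Uqcr, with Cox and a digit of 4 to 8, or with Atp5, together with Sdha, Sdhb, Sdhc and Sdhd. The rule used names alone and found 85 of 32285 genes: 36 of complex I, 4 of complex II, 8 of complex III, 20 of complex IV and 17 of the ATP synthase (complex V). Ndufa4 and Ndufa4l2 carry complex I names and were counted with complex IV, of which NDUFA4 is a subunit. The 85 genes lie on 19 chromosomes, and their transcripts are short, with a median length of 683 bases and a range of 360 to 4660.

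MC38 is a mouse colon carcinoma line, implanted here in C57BL/6 female mice that were then given LC427 or vehicle. LC427 is a compound known here by its code name, and the series title ties it to LRBA and to CTLA4 degradation. Tumours were taken on day 14, digested to single cells, freed of dead cells on beads and enriched for CD45+ cells on beads, and both libraries were made with 10x 5′ chemistry. Each group is 1 library, LC427 with 6328 cells and vehicle with 5245 cells after filtering. The number of mice behind each library was not stated in the labels. There is therefore no replicate, no test was made, and every interval below covers counting error alone.

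Complexes I and II pass electrons from NADH and succinate to ubiquinone, complex III passes them to cytochrome c, and complex IV passes them to oxygen. Protons pumped along the way drive the ATP synthase. Most subunits are encoded in the nucleus, while a small set, among them the catalytic core of complex IV, is encoded by mitochondrial DNA. The complexes other than complex II thus draw on both genomes. In tumours, T cells and macrophages are known to differ in how far they rely on oxidative phosphorylation and on glycolysis.

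Promoters were taken from RefSeq tables of build GRCm38.p6, as the 250 bases before and the 50 bases after a start site. These tables held 72 promoters for 67 of the 85 genes. A search on both strands for GCGCANGCGC, the core of the site read by NRF1, a factor known to drive many respiratory genes, found 18 of the 72 promoters (25%), and the same search found 1512 of all 32851 promoters (4.60%). The ETS-type motif CCGGAAG, read by GABP and related factors, was in 17 of the 72 (23.6%), against 2910 of all promoters (8.86%). The sequences of 5 members that the results below turn on are given 5′ to 3′ on the strand of the gene, with motif matches in capitals, where CTTCCGG is CCGGAAG read from the other strand. Cox7c and Cox8a are shown because they differed in opposite directions between the libraries within complex IV, Cox6a1 because it is a ubiquitous isoform that holds both motifs, and Ndufa4 and Uqcrh because they stood apart between cell types. The matches describe these windows and nothing about binding was measured.
Cox7c, chr13:86046746-86047045, minus strand: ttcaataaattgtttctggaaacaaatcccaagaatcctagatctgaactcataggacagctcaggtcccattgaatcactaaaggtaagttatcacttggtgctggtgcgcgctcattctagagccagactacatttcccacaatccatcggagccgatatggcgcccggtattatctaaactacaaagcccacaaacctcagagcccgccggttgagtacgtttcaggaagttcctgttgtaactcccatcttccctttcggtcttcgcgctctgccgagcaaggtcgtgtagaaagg
Cox8a, chr19:7217567-7217866, minus strand: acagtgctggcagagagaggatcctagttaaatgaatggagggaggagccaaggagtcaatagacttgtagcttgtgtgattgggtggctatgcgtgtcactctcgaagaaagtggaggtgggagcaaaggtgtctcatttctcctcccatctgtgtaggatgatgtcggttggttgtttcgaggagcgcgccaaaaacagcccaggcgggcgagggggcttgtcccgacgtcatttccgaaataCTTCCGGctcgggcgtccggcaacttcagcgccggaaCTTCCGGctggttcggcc
Cox6a1, chr5:115348909-115349208, minus strand: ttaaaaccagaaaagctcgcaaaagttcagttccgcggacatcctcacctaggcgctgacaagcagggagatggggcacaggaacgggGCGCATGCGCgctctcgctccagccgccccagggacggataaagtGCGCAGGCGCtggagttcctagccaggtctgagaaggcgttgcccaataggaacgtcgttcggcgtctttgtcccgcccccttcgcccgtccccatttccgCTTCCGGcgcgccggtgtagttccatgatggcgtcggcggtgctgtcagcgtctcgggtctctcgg
Ndufa4, chr6:11907401-11907700, minus strand: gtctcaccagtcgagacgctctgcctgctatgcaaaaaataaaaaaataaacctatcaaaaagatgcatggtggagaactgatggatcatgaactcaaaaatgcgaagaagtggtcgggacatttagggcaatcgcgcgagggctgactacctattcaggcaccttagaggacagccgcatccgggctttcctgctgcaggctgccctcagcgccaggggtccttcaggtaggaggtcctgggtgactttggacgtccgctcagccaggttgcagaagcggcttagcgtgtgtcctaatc
Uqcrh, chr4:116075021-116075320, minus strand: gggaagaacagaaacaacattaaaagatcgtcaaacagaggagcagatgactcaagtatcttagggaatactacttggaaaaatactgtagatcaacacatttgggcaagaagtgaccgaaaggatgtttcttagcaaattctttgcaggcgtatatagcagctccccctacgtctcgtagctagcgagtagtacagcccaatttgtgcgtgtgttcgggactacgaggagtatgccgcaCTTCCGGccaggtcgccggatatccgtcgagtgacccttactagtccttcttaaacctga

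Cells were assigned to types by marker genes. The gates used most were macrophages (3856 cells in LC427 and 3368 in vehicle) and CD8 T cells (300 and 289). CPM here is the gene's unique molecular identifiers (UMIs) summed over the cells of a gate and scaled to a common total of UMIs per gate; the 5′ assay counts 1 end of each transcript, so the values are not divided by length. In the CD8 T gate, T-cell markers summed to 1997 CPM in LC427 and 2695 CPM in vehicle. In the macrophage gate they summed to 26.1 and 11.3 CPM. Macrophage markers summed to 3487 and 4044 CPM in the macrophage gate, against 137 and 81.8 CPM in the CD8 T gate. These markers are the genes that set the gates, so this contrast follows from the gating and is no separate check of it. The libraries differed in depth, with a median of 2424.5 UMIs per cell in LC427 and 3560 in vehicle, and in the mitochondrial share of a cell, with medians of 1.40% and 2.23%. Barcodes of 10 to 100 UMIs, taken as empty droplets, give the level of free RNA in each library. The libraries share 50 cell barcodes, and the summed ratios below were the same to 3 digits with these left out.

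In macrophages the members together took 37467 CPM in LC427 and 33259 CPM in vehicle. The ATP synthase genes gave the largest part, 12970 CPM in LC427 and 11081 CPM in vehicle, followed by complex I with 10338 and 9111 CPM, complex IV with 9651 and 9150 CPM, complex III with 4109 and 3554 CPM and complex II with 399 and 363 CPM. Complex II has few genes and each is low: averaged over the 6 gates of at least 50 cells in both libraries, its members ran between 57.2 and 92.9 CPM, while the median member reached 187 CPM in complex I, 335 CPM in complex III, 312 CPM in complex IV and 407 CPM in complex V. The most abundant member averaged 2410 CPM, and it belongs to the ATP synthase. The top 10 members held 39.3% of the members' UMIs in LC427 macrophages and 36.5% in vehicle macrophages, so a summed value leans on a few short, abundant transcripts. Cox7b2, Cox8b and Cox8c had no UMI in any gate.

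Every lymphoid and dendritic gate had a smaller share of member UMIs than macrophages in the same library. In LC427 the summed levels were 32638 CPM in CD8 T cells, 32576 CPM in conventional dendritic cells (cDC), 32465 CPM in CD4 T cells, 31644 CPM in other T cells, 29993 CPM in plasmacytoid dendritic cells (pDC), 29118 CPM in NK cells, 28014 CPM in mature regulatory dendritic cells (mregDC) and 27435 CPM in fibroblasts. In vehicle they were 31150 CPM in pDC, 29209 CPM in CD8 T cells, 28266 CPM in cDC, 27885 CPM in fibroblasts, 27447 CPM in CD4 T cells, 26001 CPM in other T cells, 25879 CPM in NK cells and 25508 CPM in mregDC. The first 3 in the LC427 order, relative to macrophages, stood at 0.871, 0.869 and 0.867, and are not told apart at this depth; mregDC stood at 0.748 in LC427 and 0.767 in vehicle. Empty droplets held 21689 CPM in LC427 and 19009 CPM in vehicle, below every gate.

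**Figure D1:**
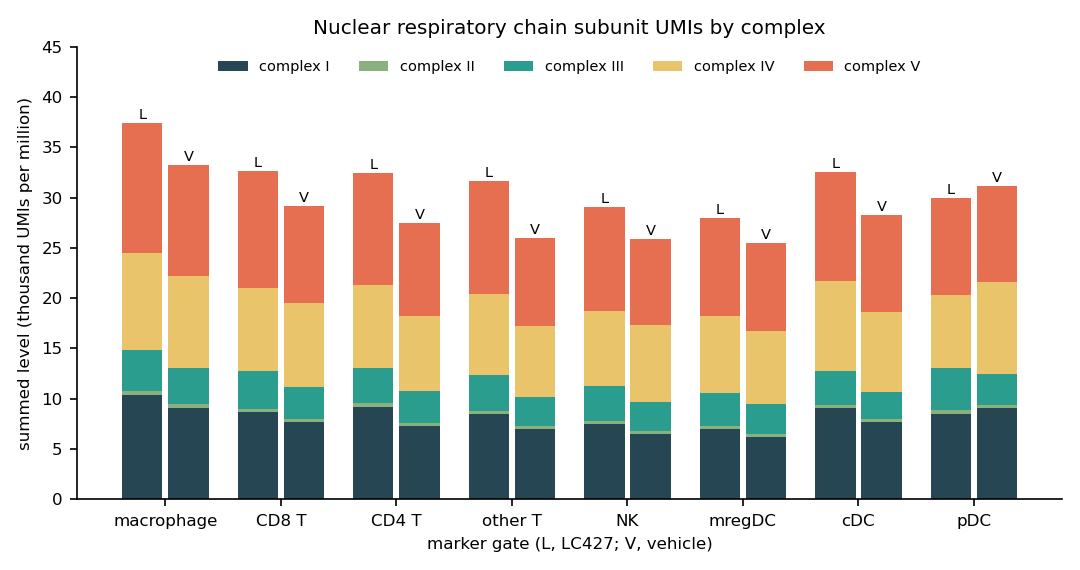
Summed CPM of the member genes by complex (stacked, y axis) in 8 gates, with the LC427 bar left of the vehicle bar in each gate and 1 library per bar. Macrophages had the highest bar in both libraries, at 37467 CPM in LC427 and 33259 CPM in vehicle.

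CD8 T cells had 0.871 times the member share of macrophages in LC427 (95% interval 0.861 to 0.882) and 0.878 times in vehicle (0.869 to 0.887). By complex the ratio was 0.837 in LC427 and 0.846 in vehicle for complex I, 0.903 and 0.894 for complex III, 0.863 and 0.914 for complex IV, and 0.894 and 0.872 for complex V. Complex II, with few UMIs, stood at 0.874 (0.774 to 0.983) in LC427 and 0.804 (0.722 to 0.893) in vehicle. The mitochondrially encoded subunits stood the other way in LC427, at 1.08 (1.06 to 1.10), and near 1 in vehicle, at 1.01 (0.995 to 1.02). The cytosolic ribosomal protein genes stood at 1.32 in LC427 and 1.40 in vehicle. With ribosomal protein and mitochondrial genes taken out of the total, the member ratio was 0.946 in LC427 and 0.969 in vehicle. The median log2 ratio of single members was -0.25 in each library, where all genes tested had 0.16 in LC427 and 0.22 in vehicle.

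Of 81 members with 20 or more UMIs, 32 were at least 1.2-fold lower in CD8 T cells than in macrophages in both libraries, where 28.5% of all genes tested were, and 3 were at least 1.2-fold higher in both, where 36.2% were. At 1.5-fold the counts were 9 lower (background 21.4%) and 1 higher (background 24.4%). The members lower in CD8 T cells included Ndufb8, an accessory subunit of complex I, which had 114 CPM in CD8 T cells and 230 CPM in macrophages of LC427, and 145 and 263 CPM in vehicle, ratios of 0.494 and 0.552. Uqcrb, a subunit near the ubiquinone site of complex III, had 255 CPM in CD8 T cells and 449 CPM in macrophages of LC427, and 260 and 436 CPM in vehicle. Cox6b1, which bridges the monomers of the complex IV dimer, had 501 CPM against 835 CPM in LC427 and 522 CPM against 832 CPM in vehicle. All 3 were lower in CD8 T cells of each library.

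The member that went furthest in the other direction was Ndufa4 (chr6:11900292-11907497, minus strand), which encodes the last-assembled subunit of complex IV. It had 434 CPM in CD8 T cells and 168 CPM in macrophages of LC427, a ratio of 2.58 (2.30 to 2.88), and 486 and 138 CPM in vehicle, a ratio of 3.52 (3.21 to 3.85). Across the other gates Ndufa4 had 515 CPM in LC427 and 471 CPM in vehicle in cDC, 434 and 507 CPM in CD4 T cells, 431 and 399 CPM in other T cells, 285 and 271 CPM in NK cells, and 140 and 62.0 CPM in mregDC, while pDC had 218 and 499 CPM from 16 and 20 UMIs. The cDC and T-cell gates therefore lay high and mregDC lowest in both libraries, and cDC and the T-cell gates overlapped in their intervals. A UMI of Ndufa4 was seen in 57.0% of CD8 T cells and 34.4% of macrophages in LC427, and in 69.9% and 36.8% in vehicle. With each cell thinned to 1000 UMIs these shares were 35.7% and 14.7% in LC427 and 36.0% and 12.9% in vehicle. The macrophage and mregDC levels were no higher than those of empty droplets, which held 180 CPM in LC427 and 151 CPM in vehicle. How much of the macrophage and mregDC values is free RNA was not tested.

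Among macrophages, Ndufa4 was highest in cells gated on Folr2 and Cbr2, markers of resident-like macrophages, with 296 CPM in LC427 and 192 CPM in vehicle. Cells gated on Ly6i and Nos2 had 187 and 182 CPM, those on Trem1 and Clec5a 167 and 144 CPM, those on Cx3cr1 and Pf4 156 and 141 CPM, and those on Mmp13 and Mmp12 115 and 84.9 CPM. The order of these 5 sub-gates was the same in both libraries, though neighbours in the middle of it overlapped in their counting intervals, as did the first pair in vehicle. The difference between LC427 and vehicle in the Folr2 and Cbr2 gate rests on 104 and 368 cells. Empty droplets held 180 CPM in LC427 and 151 CPM in vehicle. The Trem1 and Clec5a, Cx3cr1 and Pf4, and Mmp13 and Mmp12 levels were below these in both libraries. The part of free RNA in the order was not tested.

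AA467197 (chr2:122636986-122641191, plus strand), known as Nmes1 in mouse and C15orf48 in human, encodes a paralogue of NDUFA4 that can take its place in complex IV; it is no member by name and was picked after its values were seen. It had 1196 CPM in LC427 and 887 CPM in vehicle in macrophages, 201 and 130 CPM in CD8 T cells, 824 and 558 CPM in mregDC and 159 and 212 CPM in cDC. Within macrophages it had 2014 CPM in LC427 and 1562 CPM in vehicle in the Ly6i and Nos2 gate, 1794 and 1703 CPM in the Trem1 and Clec5a gate, and 362 and 240 CPM in the Folr2 and Cbr2 gate. The cDC and CD8 T gates, high in Ndufa4, were thus low in AA467197, and mregDC had little Ndufa4 and much AA467197. Not every gate followed this. AA467197 had 476 CPM in LC427 and 143 CPM in vehicle in other T cells, which were high in Ndufa4. CD4 T cells had 330 and 123 CPM, and NK cells 359 and 345 CPM. The Mmp13 and Mmp12 gate, the sub-gate lowest in Ndufa4, had 1199 and 1197 CPM, less than the Ly6i and Nos2 gate. Empty droplets held 689 CPM of AA467197 in LC427 and 394 CPM in vehicle. This is above the CD8 T, CD4 T, other T, NK and cDC levels of the same library, and above the Folr2 and Cbr2 level. How much of those low values is free RNA was not tested.

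**Figure D2:**
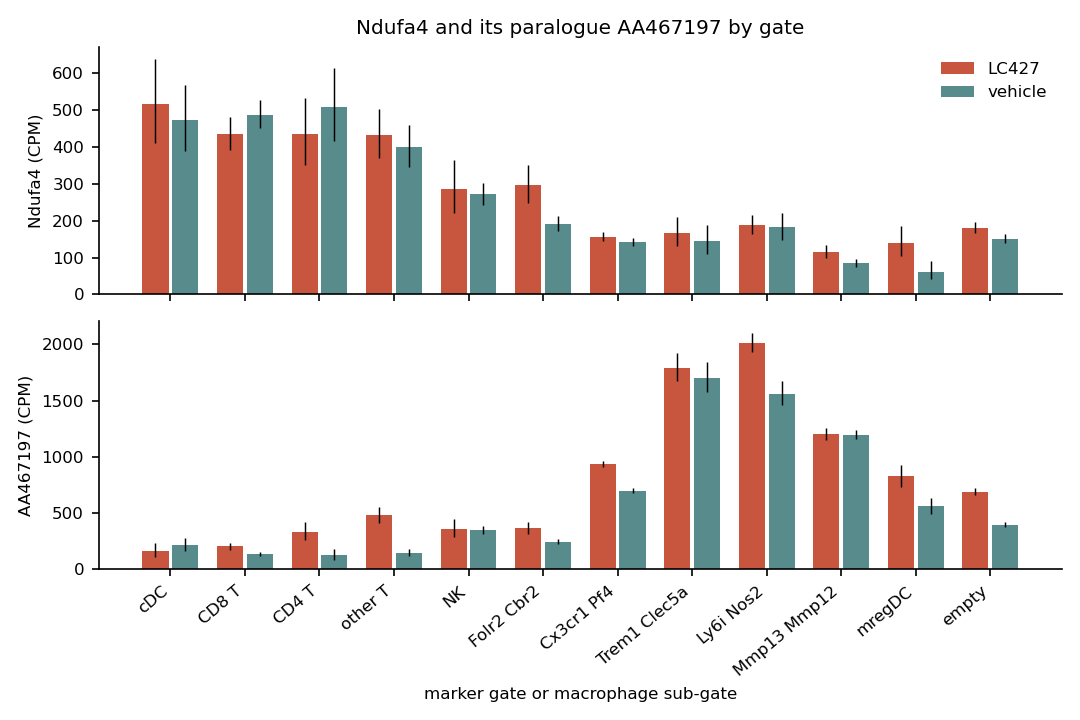
CPM of Ndufa4 and of its paralogue AA467197 (y axes) by gate and by macrophage sub-gate, LC427 left of vehicle, with error bars for 95% Poisson intervals. Ndufa4 stood at 434 CPM in LC427 and 486 CPM in vehicle CD8 T cells, and AA467197 at 2014 and 1562 CPM in Ly6i and Nos2 macrophages.

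The remaining members higher in CD8 T cells were few and the ratios small. Uqcrh, the acidic hinge protein of complex III that helps cytochrome c dock, had ratios to macrophages of 1.30 in LC427 and 1.40 in vehicle, and Uqcrc2, a core subunit of the same complex picked after its values were seen, 1.27 (0.975 to 1.64) and 1.56 (1.25 to 1.93). Just under 1.2-fold in LC427 were Atp5a1, the alpha subunit of the catalytic head of the ATP synthase, with 468 CPM in CD8 T cells and 392 CPM in macrophages of LC427 and 415 and 299.9 CPM in vehicle, and Ndufb11 of complex I, with ratios of 1.19 and 1.25. Uqcrh was also 1.44 and 1.64 times the macrophage level in mregDC, as was Cox7a2l, a factor in the joining of complexes III and IV, at 1.43 and 1.34. In mregDC most members went the other way: 59 of 81 were at least 1.2-fold lower than in macrophages in both libraries, where 40.4% of all genes tested were, and 28 at least 1.5-fold lower, against a background of 30.9%. The median log2 ratio of members in mregDC was -0.51 in each library, and that of all genes -0.23 in LC427 and -0.19 in vehicle. In NK cells 42 of 81 were at least 1.2-fold lower than in macrophages in both libraries (background 29.6%), in CD4 T cells 30 (23.4%), in cDC 30 (27.3%) and in pDC 25 (31.4%). At least 1.2-fold higher in both libraries were 4 in cDC (background 21.6%), and 2 each in CD4 T cells (29.9%), NK cells (24.4%), mregDC (19.4%) and pDC (20.2%). The comparisons of the gates share the macrophage cells, so their counts are not independent of each other.

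**Figure D3:**
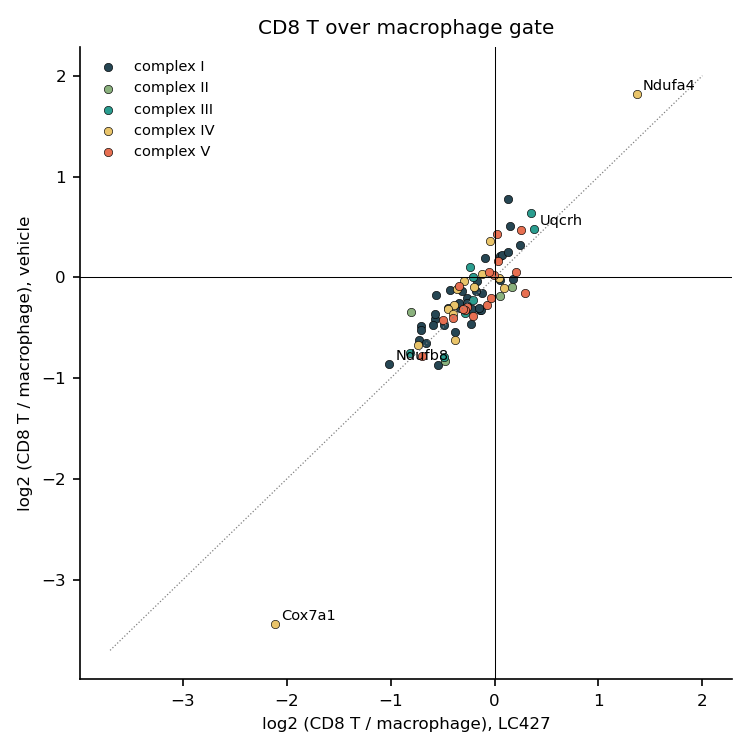
Log2 ratio of CD8 T over macrophage CPM for 79 members with UMIs in both gates, in LC427 (x axis) and in vehicle (y axis), with equality between libraries dotted. Ndufa4 lies alone at the upper right, at 2.58 times in LC427 and 3.52 times in vehicle, and Cox7a1 at the lower left.

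Several members are tissue-restricted isoforms of complex IV, and these were found in few gates, mostly at low levels. Cox6a2 (chr7:128205435-128206387, minus strand), the heart and skeletal muscle isoform of subunit 6A, was found in pDC, with 396 CPM from 29 UMIs in LC427 and 1548 CPM from 62 UMIs in vehicle. A UMI of it was seen in 12 of 31 pDC in LC427 (38.7%) and 16 of 19 in vehicle (84.2%), or in 32.3% and 73.7% after thinning. Macrophages had a UMI in 13 of 3856 cells in LC427 and 22 of 3368 in vehicle, 1.71 and 1.58 CPM, which is below the 3.36 and 2.44 CPM of empty droplets; median depth was 1237 and 1783 UMIs in pDC and 2544.5 and 3803 UMIs in macrophages. CD8 T cells had none, which allows up to 3.56 CPM in LC427 and 2.34 CPM in vehicle.

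Within pDC the Cox6a2 ratio of LC427 to vehicle was 0.256 (0.159 to 0.403), and it depended on how cells were grouped. Markers of the cell type moved with it: Siglech, a pDC receptor, had 1173 CPM in LC427 and 2246 CPM in vehicle, Bst2 1814 and 3145 CPM, and Tcf4, the pDC master regulator, 1023 and 1772 CPM. Markers of some other types were higher in the LC427 gate. The 7 macrophage markers summed to 246 CPM in LC427 and 74.9 CPM in vehicle. The 6 tumour-like markers summed to 314 and 25.0 CPM, and the 6 T-cell markers to 109 CPM and 0. The 3 endothelial markers were lower, at 109 CPM in LC427 and 374 CPM in vehicle, and those of cDC summed to 205 and 200 CPM. Markers of NK cells summed to 13.6 and 74.9 CPM and those of mregDC to 13.6 and 25.0 CPM. Markers of B cells summed to 40.9 and 49.9 CPM and those of neutrophils to 0 and 25.0 CPM. In this gate 1 UMI is 13.6 CPM in LC427 and 25.0 CPM in vehicle. The NK, mregDC, B and neutrophil sums thus rest on too few UMIs to give a direction. A single LC427 barcode of 23899 UMIs held 32.6% of that gate's UMIs, and without the deepest cell of each library Cox6a2 had 567 CPM in LC427 and 1770 CPM in vehicle, a ratio of 0.320. In the cluster that held nearly all gated pDC, with 68 cells in LC427 and 46 in vehicle, Cox6a2 had 442 and 504 CPM, a ratio of 0.878, and Siglech 822 and 827 CPM. The part of the gate's composition in the lower LC427 value was not tested. In the authors' deposited tables Cox6a2 had its highest log2 fold change against the other cells in their cluster 7 of LC427 (4.71) and in their cluster 12 of vehicle (3.74), the clusters where Siglech was highest too (5.67 and 4.70).

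Cox7a1, the heart and skeletal muscle isoform of subunit 7A, had 25.7 CPM in LC427 and 33.9 CPM in vehicle in macrophages, a ratio of 0.758 (0.658 to 0.873). CD8 T cells had 5.93 and 3.12 CPM, below the 15.1 and 10.8 CPM of empty droplets. In mregDC it had 25.7 CPM from 9 UMIs in LC427 and 2.30 CPM from 1 UMI in vehicle, and in cDC 24.5 CPM from 4 UMIs and 12.7 CPM from 3 UMIs, so the LC427 levels of both gates stood near the macrophage level on few counts. Cox4i2, the isoform of subunit 4 known from lung and from hypoxic cells, had 7.59 CPM from 93 UMIs in LC427 macrophages and 12.4 CPM from 196 UMIs in vehicle macrophages, a ratio of 0.611 (0.472 to 0.786), and no UMI in CD8 T or NK cells. Empty droplets were lower in LC427 as well, with 2.35 CPM of Cox4i2 from 7 UMIs against 4.61 CPM from 17 UMIs in vehicle. Cox6b2, the testis isoform of subunit 6B, had 2.45 CPM in LC427 macrophages and 3.04 CPM in vehicle macrophages, and 19.95 CPM from 7 UMIs in LC427 mregDC and 2.30 CPM from 1 UMI in vehicle mregDC. Ndufa4l2, a hypoxia-induced paralogue of NDUFA4, had 0.653 CPM in LC427 macrophages and 4.05 CPM in vehicle macrophages, close to the empty droplets, which held 1.34 and 3.52 CPM. In fibroblasts it had 21.4 CPM from 8 UMIs in LC427 and 218 CPM from 72 UMIs in vehicle, a ratio of 0.0979 (0.0407 to 0.203) over 60 and 30 cells. The make-up of that gate moved with it: its own markers, 4 collagen and matrix genes, summed to 7635 CPM in LC427 and 26184 CPM in vehicle, and clusters made up mostly of fibroblast-gated cells held 12 cells of LC427 and 31 of vehicle. The part of this in the fibroblast values, here and below, was not tested. The ubiquitous partners of these isoforms were far higher: in macrophages Cox6a1 had 801 CPM in LC427 and 670 CPM in vehicle, Cox7a2 672 and 654 CPM, and Cox4i1 1295 and 1277 CPM.

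**Figure D4:**
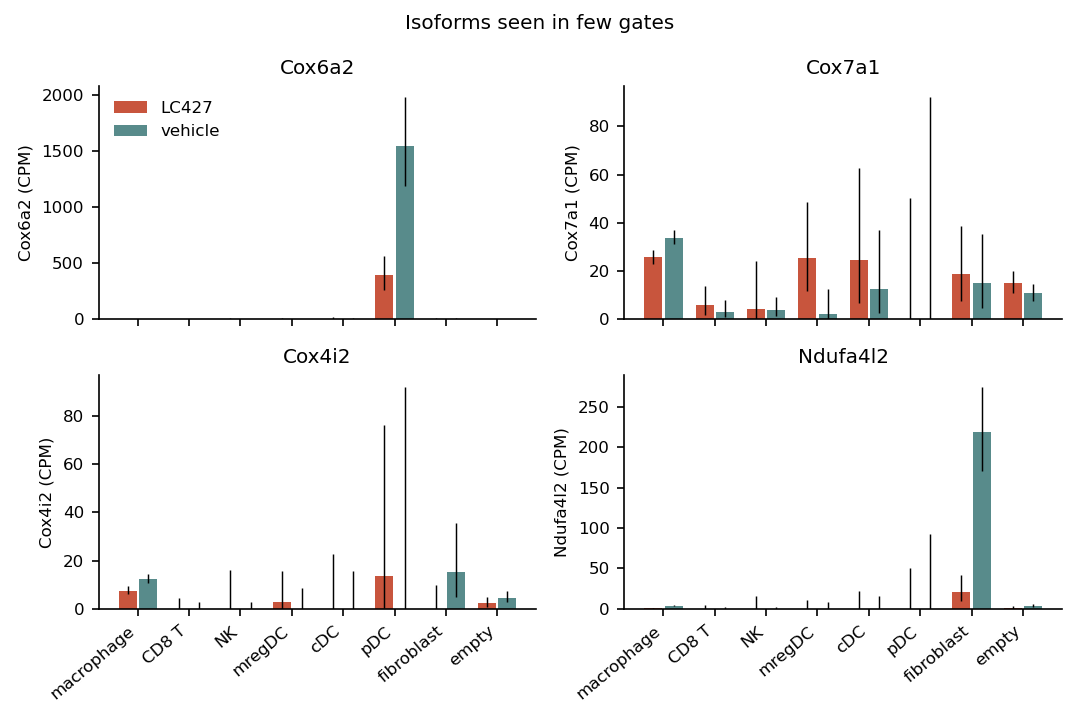
CPM of Cox6a2, Cox7a1, Cox4i2 and Ndufa4l2 (y axes) by gate, LC427 left of vehicle, with error bars for 95% Poisson intervals. Cox6a2 stands at 396 CPM in LC427 pDC and 1548 CPM in vehicle pDC, and Cox7a1 at 25.7 and 33.9 CPM in macrophages.

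Between LC427 and vehicle the summed share of member UMIs was higher in LC427 in most gates. The ratio was 1.13 (1.12 to 1.13) in macrophages and 1.12 (1.10 to 1.13) in CD8 T cells. It was 1.18 in CD4 T cells, 1.22 in other T cells, 1.13 in NK cells, 1.10 in mregDC and 1.15 in cDC, but 0.963 (0.898 to 1.03) in pDC and 0.984 (0.956 to 1.01) in fibroblasts. Empty droplets stood at 1.14, as high as the macrophage value. All of these gates come from the same pair of libraries, so they are not separate observations of the treatment, and treatment and library cannot be told apart. The 5 macrophage sub-gates ran between 1.10 in Mmp13 and Mmp12 cells and 1.19 in Trem1 and Clec5a cells.

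By complex the macrophage ratio was 1.13 for complex I, 1.10 for complex II, 1.16 for complex III, 1.05 for complex IV and 1.17 for complex V. In CD8 T cells it was 1.12, 1.2, 1.17, 0.996 (0.966 to 1.03) and 1.2 in the same order, and in empty droplets 1.18, 1.29, 1.15, 1.03 and 1.18. Complex IV had the lowest ratio in each of these 3. The typical member differed less than the sums. With each member weighted equally the macrophage ratio was 1.03 and the CD8 T ratio 1.04, while a sum gives more weight to abundant members.

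The median log2 ratio of LC427 over vehicle was 0.11 over 82 members tested in macrophages and 0.12 over all genes tested there, and genes with transcripts of up to 1500 bases had 0.02. In CD8 T cells the medians were 0.01 over 77 members and 0.04 over all genes. Members stood above all genes in CD4 T cells, at 0.20 against -0.05, in cDC, at 0.19 against 0.01, in mregDC, at 0.17 against 0.06, and in other T cells, at 0.20 against 0.13. They stood below all genes in NK cells, at 0.16 against 0.27, and in fibroblasts, at -0.06 against 0.12. The same held in pDC, at -0.10 against -0.08, and in empty droplets, at 0.20 against 0.24. Genes of up to 1500 bases had 0.16 in NK cells and 0.02 in CD8 T cells, close to the members there. These short genes had -0.005 in CD4 T cells, 0.09 in other T cells, and -0.02 in cDC and in mregDC. In fibroblasts they had 0.03, in pDC -0.01 and in empty droplets 0.22. In macrophages 20 of the 82 members were at least 1.2-fold higher in LC427 (24.4%), where 33.8% of all genes tested were, and 12 were at least 1.2-fold lower, against a background of 17%. The 20 comprised 7 members of complex I, 4 of the 8 of complex III, 2 of complex IV and 7 of complex V, and the 12 comprised 3, 0, 5 and 4 in that order. At 1.5-fold, Ndufb1-ps was higher (background 10.6%) and Cox4i2 and Ndufa4l2 lower (background 6.12%). In CD8 T cells 23 of 77 were at least 1.2-fold higher (background 31.3%) and 15 at least 1.2-fold lower (background 26.7%). At 1.5-fold, Ndufb1-ps, Atp5k and Atp5mpl were higher (background 13%) and Atp5g2 and Ndufa12 lower (background 11.3%). As shares of the members tested, these counts are below the background in both gates.

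The other gates gave counts of the same kind at 1.2-fold. In CD4 T cells 35 of 73 members were higher in LC427 (background 28.7%) and 10 lower (37.2%), and in other T cells 35 of 77 higher (39.4%) and 14 lower (25.9%). In NK cells 28 of 77 were higher (47.1%) and 15 lower (25.9%), in mregDC 27 of 75 higher (34.2%) and 9 lower (27.3%), and in cDC 30 of 73 higher (30.5%) and 17 lower (31.1%). In pDC 15 of 54 were higher (34.1%) and 22 lower (40.6%), and in fibroblasts 8 of 77 higher (42.1%) and 21 lower (30.7%). Fibroblasts were thus the gate with fewest members higher in LC427, and also the gate whose own markers summed to 7635 CPM in LC427 and 26184 CPM in vehicle. In empty droplets 31 of 79 were higher (47.3%) and 3 lower (11.4%).

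The ATP synthase genes split by gene. Atp5e, the epsilon subunit of the catalytic head, had 3150 CPM in LC427 and 2489 CPM in vehicle in macrophages, a ratio of 1.27 (1.25 to 1.28), and 2986 and 2059 CPM in CD8 T cells, 1.45 (1.37 to 1.53). Genes of small subunits of the membrane part were higher as well. Atp5k, subunit e, had 494 CPM in LC427 and 358 CPM in vehicle in macrophages, and 484 and 310 CPM in CD8 T cells, a ratio of 1.56 (1.35 to 1.79). Atp5mpl, a small proteolipid, had 1251 and 927 CPM in macrophages, and 1081 and 709 CPM in CD8 T cells, a ratio of 1.52 (1.39 to 1.67). Atp5md, also called DAPIT, had 1385 and 999 CPM in macrophages and 1052 and 754 CPM in CD8 T cells, and Atp5l, subunit g, 1489 and 1183 CPM and 1207 and 949 CPM. Empty droplets had ratios of 1.47 for Atp5md, 1.29 for Atp5mpl, 1.21 for Atp5e, 1.16 for Atp5l and 1.10 for Atp5k.

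Other ATP synthase genes were lower in LC427 in macrophages and CD8 T cells. Atp5g2, 1 of the genes for the c-ring subunit, had 395 CPM in LC427 and 515 CPM in vehicle in macrophages, a ratio of 0.766 (0.739 to 0.794), and 312 and 486 CPM in CD8 T cells, 0.641 (0.553 to 0.741). Atp5d, the delta subunit of the catalytic head, had 259 and 339 CPM in macrophages and 258 and 345 CPM in CD8 T cells, ratios of 0.763 and 0.748. Atp5o, the stalk protein OSCP, had 172 and 221 CPM in macrophages and 122 and 165 CPM in CD8 T cells, ratios of 0.779 and 0.742. In empty droplets Atp5d and Atp5o each stood at 1.02, and Atp5g2 at 0.812. Smaller gates varied. Atp5o stood at 1.79 (1.01 to 3.27) in CD4 T cells, 1.44 (0.871 to 2.39) in cDC and 1.37 (0.501 to 4.30) in pDC. Atp5d stood at 1.16 (0.813 to 1.65), 0.849 (0.560 to 1.27) and 0.765 (0.316 to 1.93) in the same order. Atp5j, the coupling factor F6, had 437 CPM in LC427 and 498 CPM in vehicle in macrophages and 447 and 559 CPM in CD8 T cells, with 1.02 in empty droplets. The summed ratio of 1.17 for the complex in macrophages therefore holds members on both sides of 1.

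Complex IV was split in the same way. Cox7c (chr13:86044816-86046904, minus strand), a small structural subunit, had 1736 CPM in LC427 and 1222 CPM in vehicle in macrophages, a ratio of 1.42 (1.39 to 1.45), and 1790 and 1217 CPM in CD8 T cells, 1.47 (1.37 to 1.58). Cox8a (chr19:7215153-7217616, minus strand), also a small structural subunit, had 1144 and 1360 CPM in macrophages, a ratio of 0.842 (0.824 to 0.860), and 936 and 1326 CPM in CD8 T cells, 0.706 (0.648 to 0.769). Cox7b, a subunit of the same enzyme, had 375 CPM in LC427 and 460 CPM in vehicle in macrophages and 288 and 300 CPM in CD8 T cells. Cox4i1, Cox6b1 and Cox7a2 had macrophage ratios of 1.01, 1.00 and 1.03. In empty droplets Cox7c stood at 1.22 and Cox8a at 0.898, nearer to 1 than in the cells.

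Complex I members lay mostly between these. Ndufb1-ps (chr12:101968090-101977068, minus strand) had 1091 CPM in LC427 and 691 CPM in vehicle in macrophages, a ratio of 1.58 (1.54 to 1.62), and 981 and 558 CPM in CD8 T cells, 1.76 (1.59 to 1.95), with 1.59 in empty droplets. The annotation lists it as a non-coding gene, and reads shared with copies cannot be told apart from its own, so its level is uncertain. Ndufa2, an accessory subunit, had 744 and 627 CPM in macrophages and 638 and 456 CPM in CD8 T cells, ratios of 1.19 and 1.40. Ndufv3, part of the NADH-binding module, had 382 CPM in LC427 and 477 CPM in vehicle in macrophages and 233 and 332 CPM in CD8 T cells, ratios of 0.8 and 0.703, with 0.989 in empty droplets. Ndufa12, an accessory subunit, had 53.6 and 79.9 CPM in macrophages and 42.7 and 64.7 CPM in CD8 T cells, ratios of 0.671 (0.610 to 0.738) and 0.660 (0.433 to 0.986), with 0.758 in empty droplets.

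In complex III Uqcrh had 1048 CPM in LC427 and 847 CPM in vehicle in macrophages, a ratio of 1.24, and 1359 and 1183 CPM in CD8 T cells, a ratio of 1.15. Uqcrq, a small subunit, had 847 and 695 CPM in macrophages and 693 and 546 CPM in CD8 T cells, ratios of 1.22 and 1.27. No complex III member was at least 1.2-fold lower in LC427 macrophages. In complex II Sdha, the flavoprotein, had 105 and 88.6 CPM in macrophages and 109 and 77.9 CPM in CD8 T cells, where the ratio was 1.40 (1.04 to 1.88). Sdhb, the iron-sulfur subunit, had 109 and 99.6 CPM in macrophages and 122 and 93.5 CPM in CD8 T cells. Sdhc and Sdhd, the membrane anchors, had macrophage ratios of 1.00 and 1.11, and the few UMIs in CD8 T cells left Sdhd at 0.807 (0.565 to 1.14).

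**Figure D5:**
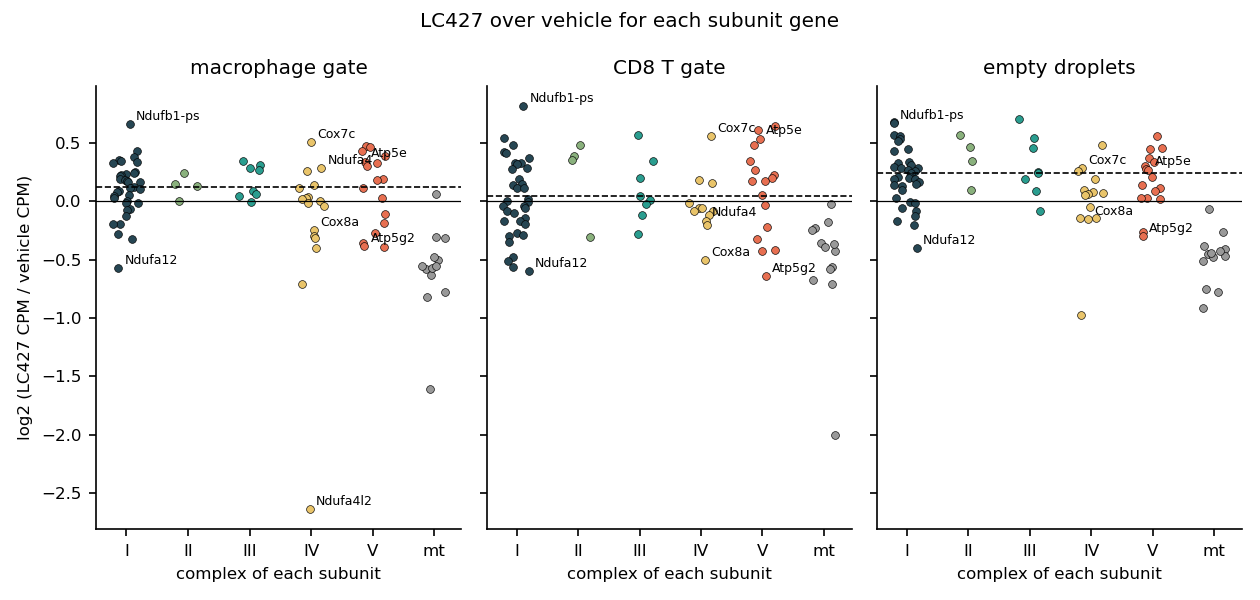
Log2 ratio of LC427 over vehicle CPM (y axis) for each tested member by complex and for the mitochondrially encoded subunits, in macrophages, CD8 T cells and empty droplets, with the median of all genes tested dashed. Members of complexes I, IV and V lie on both sides of 0 in each panel, with Ndufb1-ps at 1.58 times in macrophages, while nearly all mitochondrially encoded subunits lie below 0.

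In macrophages and CD8 T cells the 13 subunits encoded by mitochondrial DNA ran against the nuclear ones. Their summed level was 15191 CPM in LC427 and 23352 CPM in vehicle in macrophages, a ratio of 0.651, and 16419 and 23503 CPM in CD8 T cells, 0.699. In macrophages 12 of the 13 were at least 1.2-fold lower in LC427 and in CD8 T cells 9, where 17% of all genes tested in macrophages and 26.7% in CD8 T cells were. The exception in macrophages was mt-Nd4l of complex I, with 1020 and 978 CPM. mt-Atp8, a small ATP synthase subunit whose reading frame overlaps that of mt-Atp6, had 625 CPM in LC427 and 1908 CPM in vehicle in macrophages, a ratio of 0.327 (0.319 to 0.336), and 0.250 (0.225 to 0.279) in CD8 T cells. mt-Co1, the catalytic subunit of complex IV, had 4814 and 7072 CPM in macrophages, a ratio of 0.681. The median log2 ratio of the mitochondrially encoded subunits tested was -0.09 in NK cells and 0.14 in fibroblasts, where all genes had 0.27 and 0.12. In the other gates it ran between -0.89 in other T cells and -0.39 in CD8 T cells.

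Nuclear member UMIs per mitochondrially encoded UMI were 2.47 in LC427 and 1.42 in vehicle in macrophages, 1.99 and 1.24 in CD8 T cells, and 1.99 and 1.25 in empty droplets. Fibroblasts differed little, with 1.80 and 1.89, and their mitochondrially encoded ratio was 1.03 (0.992 to 1.07), in a gate whose markers summed to 7635 CPM in LC427 and 26184 CPM in vehicle. Empty droplets stood at 0.717, near the macrophage and CD8 T values. The filter of at most 10% mitochondrial UMIs removed 12 barcodes in LC427 and 137 in vehicle. Under the 11 alternatives run for it, the mitochondrially encoded ratio ran between 0.609 and 0.686 in macrophages. In CD8 T cells it ran between 0.682 and 0.713. Apart from these alternatives, the part of that filter and of free RNA in the lower LC427 values was not tested.

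Cycling cells gave a somewhat larger share of their UMIs to the members. Cells with at least 2 of 6 cycling markers were set against cells with 0. In CD8 T cells these were 116 against 133 cells in LC427 and 119 against 126 in vehicle. The members took 33167 CPM in cycling cells and 31922 CPM in the others in LC427, a ratio of 1.04 (1.01 to 1.07), and 30651 and 26722 CPM in vehicle, a ratio of 1.15 (1.12 to 1.17). For complex IV the ratios were 1.09 in LC427 and 1.25 in vehicle, while the mitochondrially encoded subunits stood at 0.960 and 0.922. Cycling cells were deeper, with medians of 2601 against 1695 UMIs in LC427 and 5049 against 2342 UMIs in vehicle, and the part of depth in these ratios was not tested. In macrophages the ratios were 1.08 in LC427 and 1.10 in vehicle.

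Picked after their values were seen, single members higher in cycling CD8 T cells in both libraries, with intervals above 1, included Uqcr10 of complex III, at 1.44 in LC427 and 1.36 in vehicle, and Atp5f1, the stator subunit b of the ATP synthase, at 1.36 and 1.33. Ndufa4 stood at 1.32 and 1.36, Cox6a1 at 1.30 and 1.24, and Atp5g3, a gene for the c-ring subunit, at 1.24 and 1.36. Uqcrh went the other way, at 0.838 and 0.772. The LC427 over vehicle ratio of the summed members was 1.08 within cycling CD8 T cells and 1.19 within the others, and 1.11 and 1.14 in macrophages.

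The genes that build or regulate the chain were looked at beside the members, and those named here were picked after their values were seen. Of the assembly factors tested, 15 of 45 were at least 1.2-fold higher in LC427 macrophages and 5 lower, and in CD8 T cells 11 of 32 were higher and 7 lower. Over all genes tested, 33.8% were higher and 17% lower in macrophages, and 31.3% higher and 26.7% lower in CD8 T cells, so the shares of assembly factors higher in LC427 were near the background. Cox17, the copper chaperone of complex IV, had 988 CPM in LC427 and 676 CPM in vehicle in macrophages, a ratio of 1.46, and 2548 and 1553 CPM in CD8 T cells, a ratio of 1.64. Pet100, a complex IV chaperone, had 264 and 183 CPM in macrophages, and Surf1, which serves heme insertion into complex IV, had 13.9 and 19.5 CPM, a ratio of 0.715. Ndufaf4, an assembly factor of complex I, had 33.3 and 19.5 CPM, a ratio of 1.71. Assembly factors of the same complex thus lay on both sides of 1.

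Of 13 citrate cycle enzymes tested in each gate, 2 were at least 1.2-fold higher and 1 lower in LC427 macrophages, and 1 higher and 6 lower in LC427 CD8 T cells, against the same backgrounds of 33.8% and 17% in macrophages and 31.3% and 26.7% in CD8 T cells. The 5 genes listed as carriers and exchange gave 0 and 0 in macrophages and 1 and 0 in CD8 T cells. Among them are those that move ADP, ATP and phosphate across the inner membrane. The list also holds Ndufab1, which carries a complex I name but is left out by the member rule. Among 8 regulators tested in macrophages 4 were higher and 0 lower, against 33.8% and 17% of all genes, among them Ppargc1b, a coactivator of mitochondrial genes, with 16.3 CPM in LC427 and 8.68 CPM in vehicle, and Nrf1, with 20.7 and 15.6 CPM, ratios of 1.88 and 1.33. Among 8 uncoupling and alternative entry genes 1 was higher and 0 lower in macrophages. Ucp2, a carrier of the inner membrane, had 661 and 762 CPM in macrophages and 211 and 323 CPM in CD8 T cells, ratios of 0.868 and 0.654. Atpif1, the inhibitor of the ATP synthase, had 739 and 671 CPM in macrophages, a ratio of 1.10.

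The members are shorter than most genes: the median length was 707 bases over the members tested in macrophages and 2285.5 over all genes tested there. Over the 82 members tested in macrophages the Spearman correlation of the log2 ratio of LC427 over vehicle was -0.20 with transcript length and -0.24 with GC content, and over the 11852 genes of known length it was 0.15 and -0.09. These values are descriptions across genes that share both libraries.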

How the data were processed

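The 2 10x 5′ libraries of CD45+ cells from MC38 tumours were analysed, 1 per group, grouped by treatment label. The deposited matrices hold UMI counts per gene and barcode, made with Cell Ranger 3.0.1 and followed by Seurat 3 per the submitters' processing notes; per the file headers the matrices came from software version 4, and the build was mm10 (GRCm38). The authors' deposited cluster tables give log2 fold changes between clusters of each library; their means and p-values were not used. The filter behind those tables was not stated.

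Barcodes with at least 1000 UMIs, 400 genes and at most 10% mitochondrial UMIs were kept. A cell entered a gate with at least 2 of its markers, where no other gate had over 50% of that number, and 1516 cells in LC427 and 855 in vehicle entered none. No doublet caller was applied; leaving out 320 and 220 cells by doublet score was an alternative. Counts were summed per gate and library and given as counts per 1000000 UMIs (CPM). Ratios carry an exact conditional binomial 95% interval, levels a Poisson interval and shares a Clopper-Pearson interval. A count of 0 was read as up to 3 counts. Genes with at least 20 UMIs in both libraries together were compared, and those past 1.2-fold or 1.5-fold counted. The ratio and its interval were checked on simulated data with known folds. Members named in the text were the 2 most abundant of each complex, up to 5 each way by the interval bound nearest to 1 between libraries in macrophages and in CD8 T cells, up to 5 each way between these gates, and the tissue-restricted isoforms with their partners and the Sdh genes; others are said to be picked after their values were seen. The members, gene lists and markers were chosen with earlier results of these data known. Analyses used Python 3.11.15, numpy 2.4.6, scipy 1.17.1, pandas 2.3.3 and scanpy 1.11.5. Alternatives covered the filters on cells and genes, thinning to 1000 UMIs, gating by clusters or by 3 markers, weights, and removal of free RNA.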

Additional observations from a re-analysis of the deposited data

How the results depend on the processing

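None of the 4 summed ratios below turned direction under the alternatives run, but 12 other values close to no difference crossed it under at least 1, among them Cox6a1 in CD8 T cells (LC427 over vehicle 1.11, 0.911 after thinning), complex IV in CD8 T cells (0.996, highest 1.03), Cox6a2 in macrophages (1.08, lowest 0.631) and the median log2 ratio of members in CD8 T cells (0.01, lowest -0.03). The summed LC427 over vehicle ratio in macrophages, 1.13 as reported, was 1.14 with at least 2000 UMIs per cell, 1.12 with at most 5% mitochondrial UMIs, 1.13 with clusters in place of gates and 1.03 with each member weighted equally. In CD8 T cells, 1.12 as reported, it was 1.15 at 2000 UMIs, 1.10 with clusters, 1.14 with 3 markers and 1.04 with equal weights. The CD8 T over macrophage ratio in LC427, 0.871 as reported, was 0.892 at 2000 UMIs, 0.845 after thinning, 0.946 without mitochondrial and ribosomal protein genes, 0.848 with cells weighted equally, 0.854 with clusters, 0.893 with 3 markers, 0.860 without likely doublets and 0.816 with equal member weights. In vehicle, 0.878 as reported, it was 0.867 after thinning, 0.969 without those genes, 0.861 with cells weighted equally and 0.801 with equal member weights. The number of members at least 1.5-fold higher in LC427 CD8 T cells, 3 as reported, ran between 2 and 8, the number lower, 2 as reported, between 1 and 7, and the number lower in macrophages, 2 as reported, between 1 and 4. Of the other values, 74 of 1249 moved beyond their counting interval. The cause was not tested. Leaving out barcodes seen in both libraries, and leaving out the deepest pDC, were chosen after seeing the data. No paired analysis was possible because each group is 1 library, and for the same reason no replicate could be left out. By total UMIs, depth limits pDC most among the gates described, then cDC.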
